A study of Mus musculus with 8 samples.

Results

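The expression of 10 genes of the tumor necrosis factor (TNF) superfamily was followed in sorted microglia, the resident macrophages of the brain, from mice labelled Smad knockout (KO) and from control mice. The genes are 3 ligands (*Tnf*, *Tnfsf8* and *Tnfsf13b*) and 7 receptors (*Tnfrsf1a*, *Tnfrsf1b*, *Tnfrsf11a*, *Tnfrsf13b*, *Tnfrsf17*, *Tnfrsf21* and *Ltbr*). They were chosen by symbol from the 55573 genes of the deposited count table, with earlier results of these data known. Each symbol matched 1 Ensembl gene. There were 4 KO and 4 control libraries, 1 per mouse, all from postnatal day 60 brain. The control libraries are labelled WT. In the Methods, mutants carry floxed *Smad2* and *Smad3* on both chromosomes with *Cx3cr1* Cre, and controls generally carry Cre and 1 floxed allele. By that breeding no mouse was free of both transgenes and floxed alleles. The labels do not give the alleles of these WT mice, and the match to the Methods rests on genotype and cell type. Cre expressed from the *Cx3cr1* locus acts in microglia and in related macrophages, and the cells were sorted by flow cytometry.

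TNF superfamily ligands are mostly trimeric membrane proteins of immune cells, some of which are cut from the surface and act as cytokines. Their receptors either recruit TRAF adaptors, which lead to NF-κB and MAP kinases, or carry a death domain, through which they can also lead to apoptosis or necroptosis. In the brain, microglia are a main source of TNF. SMAD2 and SMAD3, whose genes are targeted in the mutants, act in the nucleus as the effectors of canonical TGFβ signaling.

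*Tnf* was higher in KO than in WT microglia, and 5 of the 7 receptors were lower, among them *Tnfrsf17* and *Tnfrsf13b*, whose products bind the B cell survival factors BAFF and APRIL, and *Tnfrsf1b*, which encodes TNFR2. The mean level of *Tnf* was 2.31 times that of WT, and that of *Tnfrsf17* was 10.2 times lower. *Tnfrsf1a*, which encodes TNFR1, lay between 157 and 228 CPM (counts scaled to the size of the library) in all libraries and did not pass the test. Of the 10 genes, all of which passed the filter on low counts, 6 passed edgeR's quasi-likelihood test at an adjusted p under 0.05 (1 higher, 5 lower), where 12.3% of the 20153 genes tested did (4.36% higher, 7.97% lower). Since the genes were chosen with earlier results of these data known, the 2 shares are a description and support no excess. The count of lower receptors fell to 3 with libraries scaled by their totals and to 2 without KO2, and *Tnfrsf21* and *Ltbr* were called in 2 and 1 of the 8 fits that left out a mouse. The median log2 fold change of the 10 genes was -0.39, beside 0.01 over all genes tested.

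Libraries held between 35639502 and 41946479 counts, so that a gene with 3 counts lay at 0.0648 to 0.0839 CPM. *Smad3* was 39.5 to 56.9 CPM in WT and 9.61 to 35.1 CPM in KO, highest in KO3 (log2 fold change -1.33, SE 0.36, adjusted p = 0.0429), and among the fits with 1 mouse left out it was called only without KO3. *Smad2* was 62.7 to 92.4 CPM in WT and 42.7 to 75.9 CPM in KO (log2 fold change -0.34, SE 0.22, adjusted p = 0.340), and counts over a whole gene also include transcripts that lack a deleted exon. Without KO3, 4 of the 10 genes were called (*Tnf*, *Tnfrsf1b*, *Tnfrsf13b* and *Tnfrsf17*). The female transcript *Xist* was 99.5 to 183 CPM in WT and at most 0.562 CPM in KO, and the Y-linked *Ddx3y* was at most 0.224 CPM in WT and 9.74 to 59.8 CPM in KO, so that genotype and sex cannot be told apart in any comparison here. Of 8 microglial markers, 7 were lower in KO (summed level 29616 to 44771 CPM in WT and 5680 to 7951 CPM in KO), and of 7 markers of border macrophages 5 were higher (48.0 to 93.8 CPM in WT and 1622 to 2494 CPM in KO). Of 6 markers of T and NK cells 3 were higher (summed level 11.2 to 36.5 CPM in WT and 94.1 to 178 CPM in KO). Of these 3, *Cd3e* was only 0.867 to 3.09 CPM in WT and 5.36 to 9.41 CPM in KO. *Cd3d*, *Cd8a* and *Klrb1c* overlapped between the groups and were not called. Of 6 markers of neutrophils 1 was lower (523 to 2272 CPM in WT and 244.5 to 785 CPM in KO), and of 5 markers of endothelial and mural cells 1 was lower (13.2 to 31.7 CPM in WT and 2.10 to 8.44 CPM in KO). No marker of oligodendrocytes, astrocytes or neurons was called. Their summed levels in WT were 554 to 4277, 187 to 1276 and 26.7 to 222 CPM, in this order. In KO they were 1063.5 to 3558, 302 to 1037 and 60.7 to 191 CPM. The part that RNA of other cell types and the shifts in these lists had in the results below was not tested. In RNA from a sorted population, fewer cells of a type and less RNA per cell cannot be told apart.

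**Figure D1:**
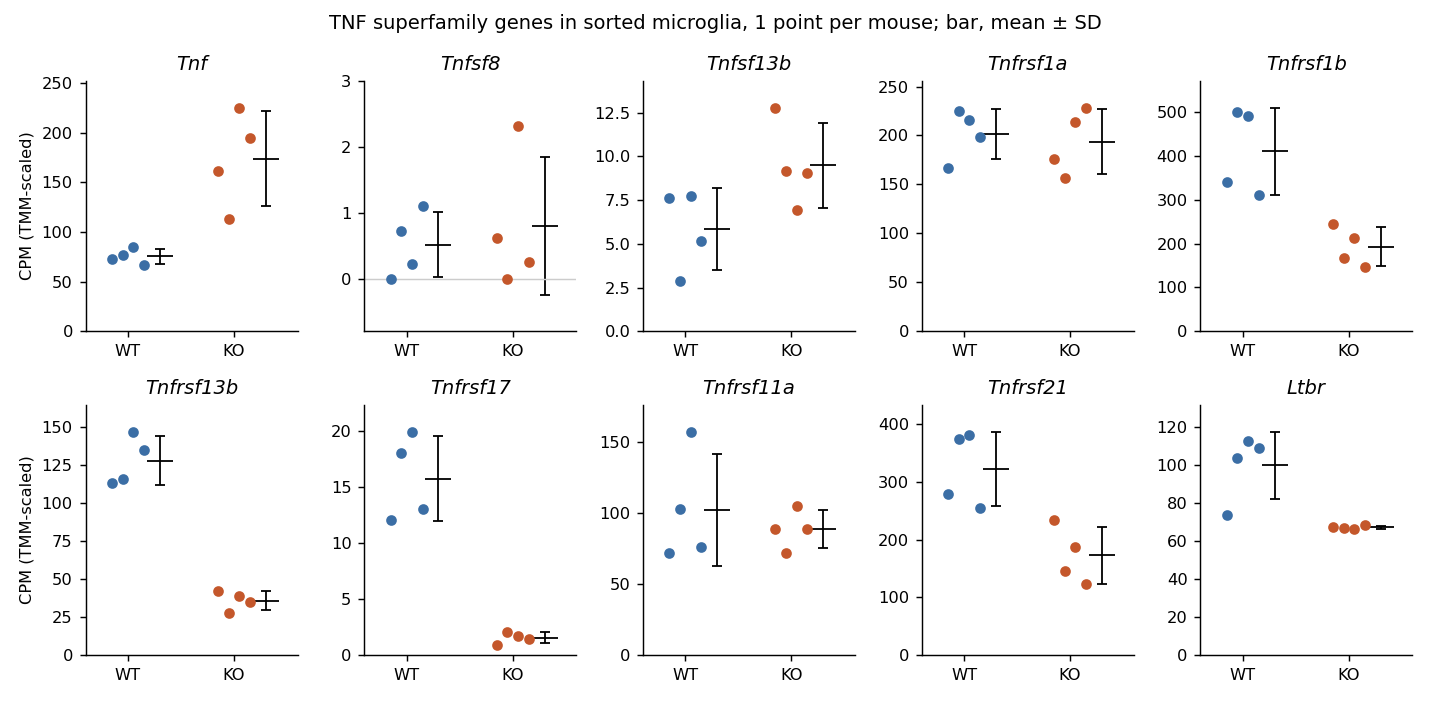
CPM, scaled by edgeR's TMM factors, of the 10 genes in WT (blue) and KO (orange) libraries, with 1 point per mouse and the mean ± SD beside the points. *Tnf* lies above the WT range in all 4 KO libraries, *Tnfrsf1b*, *Tnfrsf13b*, *Tnfrsf17*, *Tnfrsf21* and *Ltbr* lie below it, and the other 4 genes overlap.

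The 250 bases before the annotated start are shown for the called ligand and for the 3 receptors that fell most. The targeted genes encode effectors that act in the nucleus. The sequences are from RefSeq on GRCm38.p6, read 5′ to 3′ on the strand of the gene, and capitals mark a SMAD box (CAGAC) or an ETS core (GGAAGT), on either strand. They cover chr17:35202008-35202257 (minus strand) for *Tnf*, chr4:145246871-145247120 (minus strand) for *Tnfrsf1b*, chr11:61126505-61126754 (plus strand) for *Tnfrsf13b* and chr16:11313559-11313808 (plus strand) for *Tnfrsf17*.
Tnf: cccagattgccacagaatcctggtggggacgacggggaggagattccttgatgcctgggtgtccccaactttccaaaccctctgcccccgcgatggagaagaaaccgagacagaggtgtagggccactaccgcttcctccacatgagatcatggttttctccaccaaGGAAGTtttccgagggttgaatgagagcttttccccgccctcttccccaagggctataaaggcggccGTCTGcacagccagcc
Tnfrsf1b: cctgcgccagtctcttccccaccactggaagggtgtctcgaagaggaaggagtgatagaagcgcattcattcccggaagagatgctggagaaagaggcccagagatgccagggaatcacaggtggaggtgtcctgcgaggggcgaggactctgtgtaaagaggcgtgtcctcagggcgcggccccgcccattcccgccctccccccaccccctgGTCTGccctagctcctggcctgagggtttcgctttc
Tnfrsf13b: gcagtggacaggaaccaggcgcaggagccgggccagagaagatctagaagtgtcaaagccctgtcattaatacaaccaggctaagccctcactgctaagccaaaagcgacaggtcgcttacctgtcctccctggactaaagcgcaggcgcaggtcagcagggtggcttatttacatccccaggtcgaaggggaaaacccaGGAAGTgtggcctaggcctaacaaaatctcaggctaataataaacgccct
Tnfrsf17: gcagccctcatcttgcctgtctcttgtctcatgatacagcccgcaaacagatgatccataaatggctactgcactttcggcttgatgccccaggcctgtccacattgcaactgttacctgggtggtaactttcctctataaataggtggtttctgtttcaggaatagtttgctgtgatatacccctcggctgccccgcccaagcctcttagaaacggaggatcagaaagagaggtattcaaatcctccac
A SMAD box starts 16 bases before the start of *Tnf* and 36 bases before that of *Tnfrsf1b*. An ETS core starts 83 bases before the start of *Tnf* and 50 bases before that of *Tnfrsf13b*. Neither motif occurs in the *Tnfrsf17* window, and no marked motifs overlap. Over all 32851 promoters of the same length, 42.2% hold a SMAD box and 19.7% an ETS core, beside 5 and 2 of the 11 promoters of the 10 genes. The AP-1 motif TGANTCA was found in 1 of the 11, and in 6.75% of all promoters. The NF-κB consensus was found in none of the 11, and in 3.9% of all promoters. A match is a description of the sequence, and the absence of one says only that these letters are not in this window.

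*Tnf* encodes the founding cytokine of the family, which is made as a membrane protein and released by the protease ADAM17. Its gene lies at chr17:35199381-35202007. In the WT libraries it was 72.6, 76.8, 85.1 and 67.0 CPM, and in the KO libraries 161, 114, 225 and 195 CPM. The lowest KO library was above the highest WT library, and the KO mice were spread more widely. The means were 75.4 ± 7.64 (SD, n = 4) and 174 ± 47.9 (SD, n = 4) CPM, with a log2 fold change of 1.21 (SE 0.21, 95% interval 0.72 to 1.69, edgeR adjusted p = 0.00701). CPM of all KO libraries lay above all WT libraries for 9.04% of the genes tested, and below them for 13%.

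*Tnfsf13b* (chr8:10006467-10039072) encodes BAFF, which supports the survival of B cells. It was 7.63, 2.86, 7.75 and 5.14 CPM in WT and 12.8, 9.18, 6.94 and 9.05 CPM in KO. KO3 lay within the WT range, and the difference did not pass the test (log2 fold change 0.70, SE 0.36, 95% interval -0.12 to 1.51, adjusted p = 0.240). *Tnfsf8* (chr4:63831308-63861347), which encodes the ligand of CD30, had the lowest level of the 10 genes. It was 0, 0.729, 0.224 and 1.10 CPM in WT and 0.623, 0, 2.31 and 0.248 CPM in KO, where a count of 0 allows up to 0.0776 CPM in WT1 and 0.0648 CPM in KO2. The groups overlapped fully, and the interval of the log2 fold change, -2.74 to 3.99, covers large differences in either direction (adjusted p = 0.833). Its counts ran from 0 to 41 among the WT libraries and from 0 to 83 among the KO libraries.

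TNF binds TNFR1, which is widely expressed and signals through its death domain with TRADD and RIPK1, and TNFR2, which lacks a death domain and binds TRAF2. *Tnfrsf1a* (chr6:125349362-125362484), for TNFR1, was 167, 225, 216 and 198 CPM in WT and 176, 157, 214 and 228 CPM in KO. The groups overlapped, with means of 201 ± 25.5 and 194 ± 33.0 CPM (SD, n = 4 each), and the log2 fold change was -0.06 (SE 0.17, 95% interval -0.44 to 0.32, adjusted p = 0.867). *Tnfrsf1b* (chr4:145213463-145246870), for TNFR2, was 339.7, 500.4, 492 and 311 CPM in WT and 245, 168, 212 and 147 CPM in KO. All KO libraries were below the WT range, with means of 411 ± 99.3 and 193 ± 44.2 CPM (SD, n = 4 each), and the log2 fold change was -1.09 (SE 0.23, 95% interval -1.61 to -0.57, adjusted p = 0.0156). Without KO2 its adjusted p was 0.0514.

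Within each library, the balance of these genes can be given without scaling between libraries. Per kilobase of exon, the level of *Tnfrsf1b* was 1.06 to 1.55 times that of *Tnfrsf1a* in WT and 0.436 to 0.947 times in KO. On this measure *Tnfrsf1b* was above *Tnfrsf1a* in every WT library and below it in every KO library. Which gene is higher depends on the exon lengths used. In CPM, *Tnfrsf1b* was above *Tnfrsf1a* in KO1 (245 and 176) and KO2 (168 and 157), and below it in KO3 and KO4. The level of *Tnf* was 0.534 to 0.687 times that of *Tnfrsf1a* in WT and 1.14 to 1.67 times in KO. Relative to *Tnfrsf1b* it was 0.357 to 0.501 times in WT and 1.53 to 3.10 times in KO. These ratios repeat the levels above and are given as a description, with no test.

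**Figure D2:**
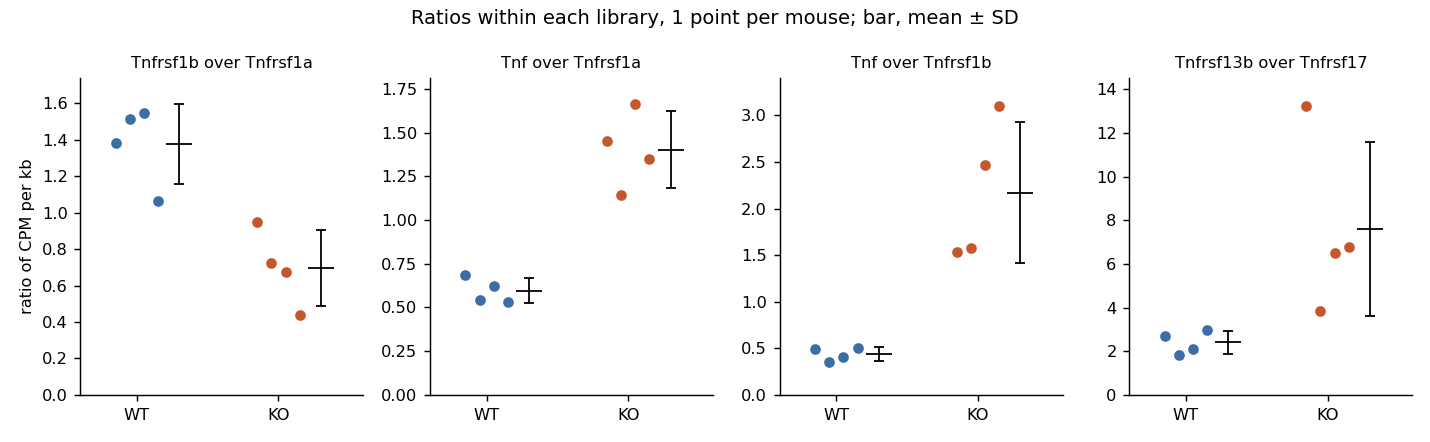
Ratios of CPM per kilobase of exon within each library for 4 gene pairs in WT (blue) and KO (orange), with 1 point per mouse and the mean ± SD beside the points. The *Tnfrsf1b* to *Tnfrsf1a* ratio is below 1 in the KO libraries (0.436 to 0.947), and the 3 other ratios are higher in all KO libraries than in any WT library.

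*Tnfrsf13b* (chr11:61126755-61149372) encodes TACI and *Tnfrsf17* (chr16:11313812-11320074) encodes BCMA, receptors of BAFF and APRIL that are best known from B cells and plasma cells. *Tnfrsf13b* was 113, 116, 147 and 135 CPM in WT and 41.9, 27.5, 38.6 and 34.5 CPM in KO. The groups were far apart, with means of 128 ± 16.1 and 35.6 ± 6.19 CPM (SD, n = 4 each), and the log2 fold change was -1.84 (SE 0.18, 95% interval -2.24 to -1.44, adjusted p = 0.000288). *Tnfrsf17* was 12.02, 18.0, 19.9 and 12.99 CPM in WT and 0.909, 2.05, 1.70 and 1.46 CPM in KO. These values rest on 465 to 712 counts per WT library and 35 to 95 counts per KO library. The means were 15.7 ± 3.82 and 1.53 ± 0.480 CPM (SD, n = 4 each), and the log2 fold change was -3.36 (SE 0.34, 95% interval -4.12 to -2.59, adjusted p = 0.000382), the largest change of the 10 genes. The level of *Tnfrsf13b* per kilobase was 1.85 to 2.99 times that of *Tnfrsf17* in WT and 3.85 to 13.2 times in KO, highest in KO1, so that *Tnfrsf17* was lower relative to *Tnfrsf13b* in every KO library.

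Among 8 markers of B and plasma cells, *Ighm*, the heavy chain of IgM, was lower in KO (411 to 701 CPM in WT, 32.2 to 56.2 CPM in KO, log2 fold change -3.61, SE 0.27, adjusted p = 8.54e-05). The summed level of the list was 476 to 761 CPM in WT and 80.2 to 123 CPM in KO, most of it *Ighm* in WT. *Cd79b*, part of the B cell receptor complex, was 29.0 to 46.6 CPM in WT and 26.6 to 49.4 CPM in KO (log2 fold change 0.07, 95% interval -0.46 to 0.59, adjusted p = 0.892), and *Ms4a1*, *Cd79a* and *Pax5* did not pass the test either. Of the 7 markers tested, *Ighm* alone was called, and 1 marker did not meet the filter on low counts. *Mzb1*, of the same list, was at most 0.833 CPM in WT and 0.441 CPM in KO and was not called. No marker of the list was at 0 in all libraries.

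The third receptor of BAFF, *Tnfrsf13c* (BAFF-R), was 0.834 to 2.25 CPM in WT and 1.25 to 4.23 CPM in KO, with overlapping groups (log2 fold change 0.84, 95% interval -0.31 to 1.99, adjusted p = 0.319). *Tnfsf13*, the gene of APRIL, was 2.09, 1.35, 1.34 and 1.32 CPM in WT and 5.999, 5.23, 3.23 and 8.70 CPM in KO (log2 fold change 1.92, SE 0.40, adjusted p = 0.0140). Its reads are uncertain, since 60% of its exon bases overlap the read-through gene *Tnfsfm13* or the antisense gene *Tnfsf13os* and the libraries are not stranded.

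*Tnfrsf21* (chr17:43016555-43089189) encodes death receptor 6, a receptor with a death domain that is also known from neurons. It was 279.6, 375, 381 and 255 CPM in WT and 234, 146, 187 and 123 CPM in KO, with no overlap. The means were 322 ± 64.8 and 173 ± 48.9 CPM (SD, n = 4 each), and the log2 fold change was -0.90 (SE 0.24, 95% interval -1.43 to -0.37, adjusted p = 0.0376). This call held in 2 of the 8 fits that left out 1 mouse each (without WT4 or KO1), with an adjusted p of 0.0209 to 0.104, and was lost when libraries were scaled by their totals. *Ltbr* (chr6:125306571-125313885) encodes the lymphotoxin β receptor, which signals to the noncanonical NF-κB pathway. In WT it was 73.6, 104, 113 and 109 CPM, and in KO 67.4, 66.9, 66.5 and 68.4 CPM. WT1 was close to the KO libraries, which lay within 2 CPM of each other. The log2 fold change was -0.57 (SE 0.16, 95% interval -0.93 to -0.21, adjusted p = 0.0491). Its call held in 1 of 8 fits with a mouse left out (without WT1, adjusted p 0.0154 to 0.127 over the 8) and was lost with RLE factors, library totals or no filter.

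*Tnfrsf11a* (chr1:105780718-105847981) encodes RANK, the receptor through which RANKL drives osteoclast formation from myeloid cells. It was 71.9, 103, 157 and 75.7 CPM in WT and 88.3, 72.0, 105 and 88.3 CPM in KO. The KO libraries all lay within the WT range, and the log2 fold change was -0.21 (SE 0.26, 95% interval -0.79 to 0.38, adjusted p = 0.659). The WT mean of 102 ± 39.3 CPM (SD, n = 4) rested in part on WT3, without which the log2 fold change was 0.08.

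Compared per kilobase of exon, the highest mean level in WT was that of *Tnfrsf1b* (107.6 CPM per kb), followed by *Tnfrsf21* (78.5), *Tnfrsf1a* (77.8), *Tnf* (46.0), *Tnfrsf13b* (45.0), *Ltbr* (42.4), *Tnfrsf17* (19.3), *Tnfrsf11a* (17.0), *Tnfsf13b* (0.851) and *Tnfsf8* (0.135 CPM per kb). Neighbours in this order overlapped in their ranges except *Tnfrsf1a* and *Tnf*, *Ltbr* and *Tnfrsf17*, *Tnfrsf11a* and *Tnfsf13b*, and *Tnfsf13b* and *Tnfsf8*. In KO, *Tnf* came first at 106 CPM per kb, followed by *Tnfrsf1a* (74.7), *Tnfrsf1b* (50.5), *Tnfrsf21* (42), *Ltbr* (28.6), *Tnfrsf11a* (14.8), *Tnfrsf13b* (12.6), *Tnfrsf17* (1.88), *Tnfsf13b* (1.38) and *Tnfsf8* (0.209 CPM per kb). The ranges of neighbours did not overlap for *Tnfrsf21* and *Ltbr*, *Ltbr* and *Tnfrsf11a*, *Tnfrsf13b* and *Tnfrsf17*, and *Tnfsf13b* and *Tnfsf8*. The ranges of *Tnf* and *Tnfrsf1a* overlapped, although *Tnf* was above *Tnfrsf1a* within each of the 4 KO libraries.

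**Figure D3:**
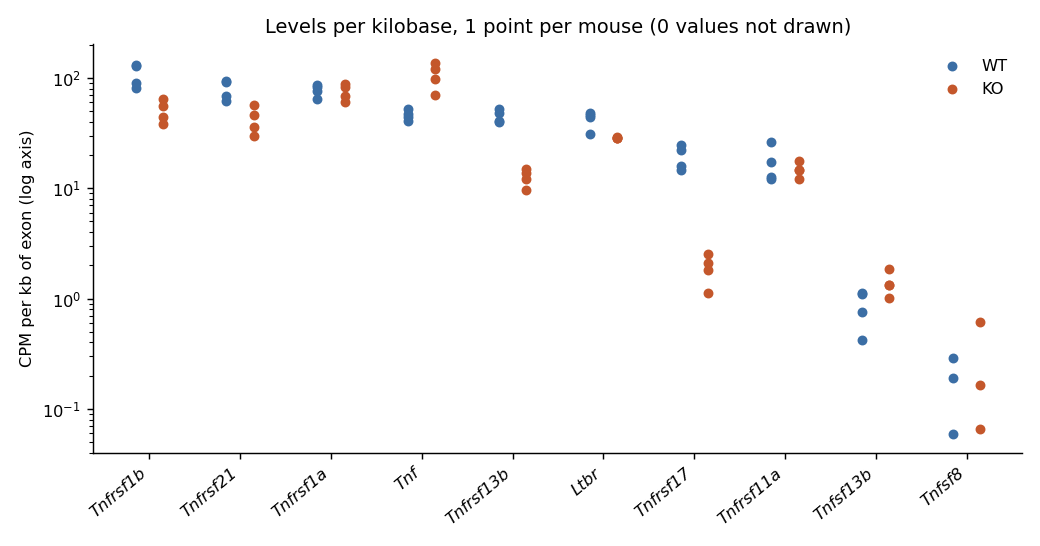
CPM per kilobase of exon (log axis) of the 10 genes in WT (blue) and KO (orange), with 1 point per mouse and genes ordered by the WT mean. *Tnf* moves from the middle of the order in WT (46.0 CPM per kb) to the top in KO (106 CPM per kb), and *Tnfrsf17* falls from 19.3 to 1.88 CPM per kb.

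A list of 36 other genes of the family was examined beside the 10, of which 27 passed the filter on low counts. Of these, 5 were called, 4 higher and 1 lower, where 4.36% of all genes tested were higher and 7.97% lower. This list was also chosen with earlier results of these data known, so that its count supports no excess. The higher genes include *Cd40* and *Tnfrsf26*, which met the filter through the KO libraries, so that their calls are no support for the count. *Cd40*, a receptor through which T cells activate antigen-presenting cells, was 0.931, 1.56, 0.923 and 0 CPM in WT and 21.7, 10.8, 15.6 and 15.7 CPM in KO (log2 fold change 4.22, SE 0.88, 95% interval 2.22 to 6.21, adjusted p = 0.0152). Its ligand *Cd40lg* was at most 2.07 CPM in WT and 2.76 CPM in KO, with overlapping groups. *Tnfrsf26* was 0.0538 to 0.448 CPM in WT and 1.87 to 4.77 CPM in KO (log2 fold change 3.43, SE 0.69, adjusted p = 0.0128), and reached 10 counts in 2 of the 4 WT libraries. *Tnfsf9*, the ligand of 4-1BB, was 1.34 to 5.16 CPM in WT and 10.2 to 17.9 CPM in KO (log2 fold change 1.91, SE 0.42, adjusted p = 0.0193). The *Gm11110* gene overlaps 14.9% of the exon bases of *Tnfsf9*, and its call was lost without WT3 (adjusted p = 0.0508).

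*Tnfrsf23*, a decoy receptor, was 10.3 to 22.9 CPM in WT and 5.05 to 8.61 CPM in KO (log2 fold change -1.32, SE 0.32, adjusted p = 0.0268). It shares 19.3% of its 50-base words with its neighbor *Tnfrsf22*, which had no call, so that reads of both are uncertain. Its call was lost without WT2, WT3, WT4, KO2 or KO4. *Ltb*, whose product signals through the lymphotoxin β receptor, was 10.4 to 14.3 CPM in WT and 15.4 to 27.1 CPM in KO, without overlap, but did not pass edgeR's test (log2 fold change 0.68, SE 0.24, adjusted p = 0.0967). *Lta*, *Tnfsf14* and *Tnfsf11* (RANKL), and the receptors *Tnfrsf8* (CD30) and *Tnfrsf11b* (osteoprotegerin), were at most 2.27 CPM in any library. With the 10 genes included, edgeR called 3 of the 12 tested ligands higher and none lower. Of the 25 tested receptors, 2 were higher (*Cd40* and *Tnfrsf26*, which met the filter through KO) and 6 lower. Over all genes tested, 4.36% were higher and 7.97% lower. At an unadjusted p under 0.05, 4 ligands were higher and 0 lower, and 3 receptors were higher and 7 lower. Over all genes tested, 13.1% were higher and 15.6% lower at this threshold. DESeq2 called 4 ligands higher and none lower, and 3 receptors higher and 6 lower. At an adjusted p under 0.05 it called 20.7% of all genes it tested (9.11% higher, 11.6% lower). Its higher receptors include *Edar*, which did not meet edgeR's filter on low counts. *Edar* was 4.61 CPM in KO4 and at most 0.364 CPM in the other KO libraries.

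**Figure D4:**
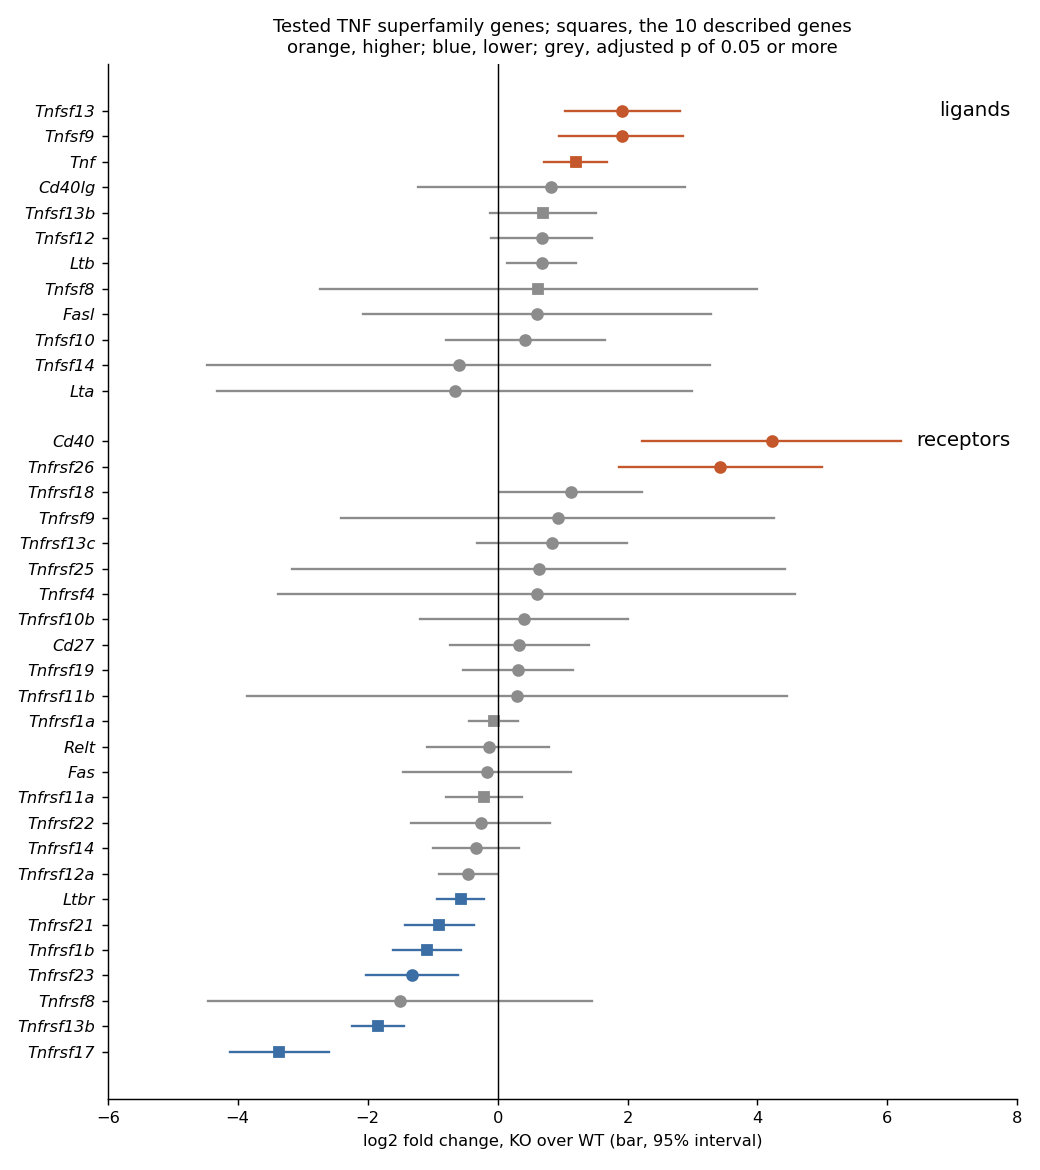
Log2 fold change, KO over WT, with its 95% interval for the 37 tested TNF superfamily genes, ligands above and receptors below, with squares for the 10 genes described and circles for the rest. Orange marks the 5 genes called higher and blue the 6 called lower, while grey genes did not pass the test. Over all genes tested, 4.36% were called higher and 7.97% lower. *Cd40* and *Tnfrsf26* met the filter through the KO libraries.

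The genes downstream of the receptors were taken as a list of 43 adaptors and regulators, 20 NF-κB response genes and 10 genes of the osteoclast programme driven by RANK. These genes too were chosen with earlier results of these data known, so that their counts support no excess over all genes. All 43 adaptors and regulators were tested, and edgeR called 6 lower and none higher (median log2 fold change -0.28). Over all genes tested, edgeR called 7.97% lower and 4.36% higher. At an unadjusted p under 0.05, 11 were lower and 4 higher, where 15.6% of all genes tested were lower and 13.1% higher. DESeq2 called 9 lower and 2 higher, where it called 11.6% of all genes lower and 9.11% higher. *Nfkb1*, which encodes the p50 subunit of NF-κB, was 139, 136, 247 and 137 CPM in WT and 57.7, 57.6, 51.8 and 60.1 CPM in KO (log2 fold change -1.54, SE 0.22, adjusted p = 0.00229). Its partner *Rela* (p65) had a log2 fold change of -0.85 (SE 0.23, adjusted p = 0.0418), and *Casp8*, the caspase that death receptors activate, of -1.0 (SE 0.19, adjusted p = 0.0104). *Traf5* (-1.44), *Otulin* (-0.46) and *Map3k7* (-0.78), the last of which encodes the kinase TAK1, were also lower. The calls of *Nfkb1* and *Casp8* held with each mouse left out, whereas those of *Rela* (2 of 8 fits, without WT4 or KO1), *Traf5* (2 of 8, without WT4 or KO3), *Map3k7* (1 of 8, without KO3) and *Otulin* (0 of 8) were mostly lost. The feedback inhibitors *Nfkbia* (log2 fold change 0.67, adjusted p = 0.155) and *Tnfaip3* (-0.28, adjusted p = 0.755) were not called. *Tradd*, *Traf2* and *Ripk1*, which bind TNFR1 or TNFR2 directly or through each other, did not pass the test either. *Adam17* was 106 to 153 CPM in WT and 37.1 to 105 CPM in KO and did not pass edgeR's test (log2 fold change -1.04, SE 0.31, adjusted p = 0.0578). The groups did not overlap, and *Adam17* was called lower with DESeq2, with 10 counts required in all 8 libraries, and without KO1.

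Of the NF-κB response genes, 19 were tested, 9 were higher and 1 was lower (median log2 fold change 1.24). Over all genes tested, 4.36% were higher and 7.97% lower. The chemokine *Cxcl2* was 39.1 to 67.9 CPM in WT and 821 to 2361 CPM in KO (log2 fold change 4.81, SE 0.38, adjusted p = 9.84e-05). *Cxcl1* was at most 4.28 CPM in WT and 49.5 to 153 CPM in KO (log2 fold change 5.55, SE 0.71). *Vcam1*, an adhesion molecule, was 22.1 to 76.3 CPM in WT and 847 to 1848 CPM in KO (log2 fold change 4.59, SE 0.45). Among the others, *Ccl3*, *Ccl2*, *Cxcl10* and *Ier3* were higher, with log2 fold changes of 1.43 to 1.94. The adhesion molecule *Icam1* went the other way, at 158 to 281 CPM in WT and 42.3 to 71.3 CPM in KO (log2 fold change -1.91, SE 0.24, adjusted p = 0.00117).

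For the RANK programme, 7 of 10 genes were tested. *Acp5*, which encodes the phosphatase TRAP, was 1.94 to 7.37 CPM in WT and 105 to 166 CPM in KO (log2 fold change 4.81, SE 0.42, adjusted p = 0.000165). *Itgb3*, the β3 integrin subunit, was 18.7 to 28.7 CPM in WT and at most 0.648 CPM in KO, with 0 to 30 counts per KO library (log2 fold change -6.85, SE 0.94, adjusted p = 0.00178). Most of the KO counts came from KO2, without which the log2 fold change was -8.76, and so its size is uncertain. *Ocstamp*, a fusion protein of osteoclasts, had at most 7 counts in any KO library and passed the filter only through WT, and the transcription factor *Nfatc1* had a log2 fold change of -0.89 (SE 0.25, adjusted p = 0.0465) with overlapping groups. With 1 mouse left out, the call of *Ocstamp* was lost without WT1, WT3, KO3 or KO4, and that of *Nfatc1* held only without WT1 or KO3. Over the 3 lists, 20 of the 69 genes tested were called, beside 12.3% of all genes, 10 of them higher and 10 lower. The lower genes include *Ocstamp* and *Itgb3*, which met the filter through the WT libraries, so that their calls are no support for the count. With libraries scaled by their totals, 11 were higher and 6 lower.

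**Figure D5:**
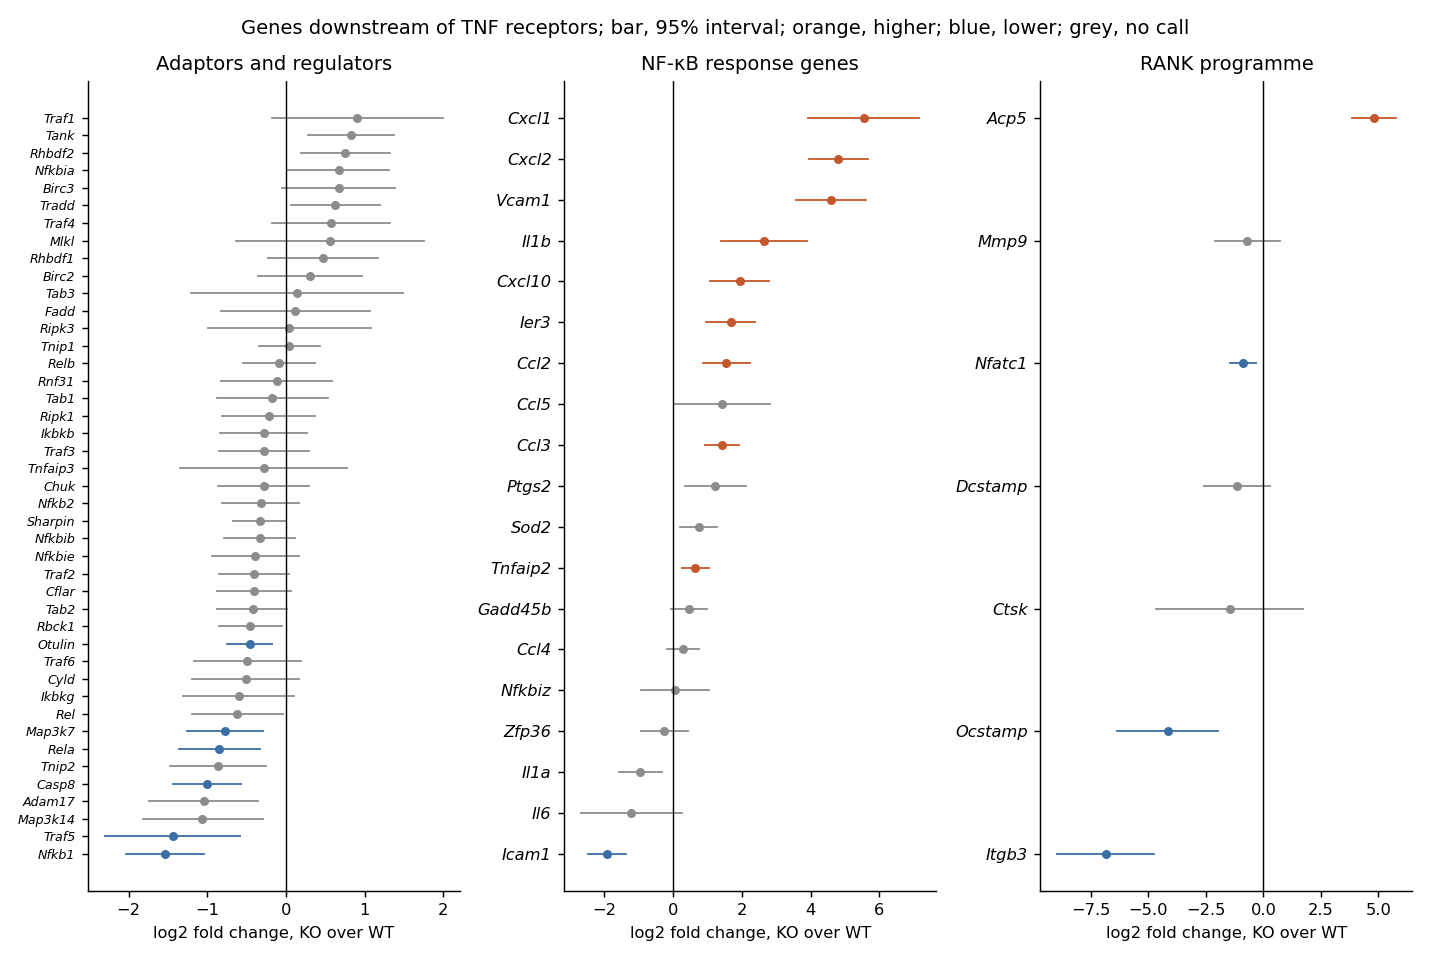
Log2 fold change, KO over WT, with its 95% interval for the tested adaptors and regulators, NF-κB response genes and RANK programme genes, each panel on its own scale. Orange genes were called higher and blue genes lower. The 6 called adaptors and regulators are all lower, and 9 of the 10 called NF-κB response genes are higher. Over all genes tested, 4.36% were called higher and 7.97% lower.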

How the data were processed

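Sorted microglia of 4 KO and 4 WT mice were analysed by RNA-seq, grouped by the sample titles. The authors deposited raw read counts per gene, made by alignment to mm10 with Rsubread and counting with featureCounts, without normalization. Versions, annotation and strand setting of these steps are not given in the sources used here. The labels name Nextera XT single-end libraries and the Methods NEBNext paired-end libraries, both unstranded, and the Methods name another deposit for these mice, so that the match to that experiment rests on genotype and cell type. A deposited table of the authors' own comparison by DESeq2 (fold changes, p-values) was not used.

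A gene was tested where 4 or more of the 8 libraries had 10 or more counts for it, with edgeR 4.0.16 in R 4.3.3 (TMM factors, estimateDisp, glmQLFit, glmQLFTest, no block), and Benjamini-Hochberg adjusted p under 0.05 over all tested genes made a call. The biological coefficient of variation was 0.542. CPM use TMM-scaled library sizes, and CPM per kb divide by merged exons of GENCODE M21 on GRCm38. The 10 genes and all lists were chosen with earlier results of these data known. Named genes are the 10, preset family partners, and called genes of each list (at most 8 per list, by smallest p). Some listed genes without a call are named outside this rule (*Cd40lg*, *Tnfrsf22*, *Nfkbia*, *Tnfaip3*, *Adam17*, *Tradd*, *Traf2* and *Ripk1*). Promoters were read from RefSeq (250 bases before each start). Alternatives were DESeq2 1.42.0, RLE factors, library totals, no filter (at least 1 count), 10 counts in every library, a block for the replicate number, and leaving out each mouse in turn. 1 marker gene counts in its list and is not reported singly here. The test was first run on simulated data. Floors of 3 counts cover counting error alone, since PCR copies could not be told from separate molecules.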

Additional observations from a re-analysis of the deposited data

Results flagged for a closer look

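Among 74 groups of 4 libraries (37 named genes), 4 held a library whose gap to the nearest of the others was, as a share of the group's range, above the 95% critical value of Dixon's test, which chance alone passes in about 5% of groups. *Nfkb1* was 246.8 CPM in WT3, where the other WT libraries were 136 to 139 CPM. *Ccl3* was 451 CPM in WT2, beside 344 to 357 CPM in the others. *Nfatc1* was 94.7 CPM in KO3, beside 54.0 to 58.0 CPM. *Tnfsf13* was 2.09 CPM in WT1, beside 1.32 to 1.35 CPM. None of the 10 TNF superfamily genes described first was among them.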

How the results depend on the processing

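*Tnf*, *Tnfrsf13b* and *Tnfrsf17* were called with the same direction under all 6 alternatives and in all 8 fits with a mouse left out. Of the 10 genes, 6 were called with DESeq2, 6 with 10 counts required in all 8 libraries, 5 with RLE factors, 5 with no filter and 4 with library totals. With a mouse left out, 3 to 5 were called, and 3 (*Tnf*, *Tnfrsf13b* and *Tnfrsf17*) without KO2. Of the other family genes, 3 were called with 10 counts required in all 8 libraries, where *Cd40* and *Tnfrsf26* were no longer tested, and 3 to 5 with a mouse left out (3 without WT3). Of the downstream genes, 12 to 19 were called with a mouse left out, 12 of them without WT3, for which the cause was not tested. The log2 fold change of *Tnfrsf1a*, which was never called, turned to 0.05 with library totals, which moved the median over all genes from 0.01 to 0.13. With a mouse left out it ranged from -0.15 to 0.03 (positive without KO2), that of *Tnfrsf11a* from -0.34 to 0.08 (positive without WT3), and that of *Tnfsf8* from -0.82 to 1.33 (negative without KO3). Over all genes, edgeR called 2485 and DESeq2 4751, and edgeR 1572 without WT2 and 1567 without WT3.

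The replicate numbers do not say what they pair. Deviations of same-numbered libraries correlated by 0.166, 0.0183, 0.144 and 0.114, so the numbers were not taken as pairs. With the replicate number as a block, 5 of the 10 genes (without *Ltbr*), 3 of the other family genes (without *Tnfsf9* and *Tnfrsf23*) and 21 downstream genes were called, and 2383 over all genes. Among the downstream genes the block gained *Nfkbia*, *Adam17*, *Il1a*, *Tnip2* and *Sod2* and lost *Il1b*, *Tnfaip2*, *Otulin* and *Ocstamp*. Libraries numbered 1, 3 and 4 correlated best with their own number and those numbered 2 did not. At this depth 3 counts are at most 0.0839 CPM, and lower levels cannot be told from 0.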
